A study of Homo sapiens with 12 samples.

Results

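The TCEAL and BEX genes are 2 related families of small X-linked genes, and 10 of them were followed here: TCEAL1, TCEAL3, TCEAL4, TCEAL5, TCEAL8, TCEAL9, BEX1, BEX2, BEX3 and BEX4. They were taken by gene name from the 10872 named transcripts among the 19972 in the count table, and each had 1 transcript. TCEAL5 drew attention to the family because it was near absent from the wild-type libraries, so its difference between genotypes is described without a test. The other 9 genes, called its relatives below, were chosen by family name. The data come from human induced neurons (hiNs), which were derived from H1, an established line of human embryonic stem cells, by overexpressing the neurogenic transcription factor Ngn2. Nterm/Nterm neurons carried an allele of LLPH that the labels call Nterm in both copies, and wt/wt neurons had the wild-type gene. Cultures of both genotypes grew to day 14 in vitro without added glia, with cytosine arabinoside (4 µM) and doxycycline (2 µg/mL) in the medium, and were harvested with cycloheximide at 100 µg/mL, which holds ribosomes in place on mRNA. Each genotype had 3 RNA-seq libraries, which measure mRNA level, and 3 Ribo-seq libraries, which count the mRNA fragments protected by ribosomes (footprints). What the Nterm allele changes, and how many clones or cultures stand behind the libraries, are not stated in the labels, so p-values measure the spread between these samples, which may be technical.

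As background, the TCEAL genes (transcription elongation factor A-like) are named for a resemblance to TFIIS, the elongation factor encoded by TCEA1 and its relatives that helps stalled RNA polymerase II resume. The BEX genes (brain expressed X-linked) encode small, largely disordered proteins that bind other proteins and act as adaptors. BEX1 and BEX3 are known to bind the p75 neurotrophin receptor, and BEX3 was described as a mediator of cell death signalled through it. Both families are strongly expressed in brain and lie together on the long arm of the X chromosome, where a shared promoter sequence has been described for genes of the cluster.

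The promoter windows of TCEAL5, of its closest protein-coding neighbours TCEAL8 and BEX2, and of TCEAL9 are given below to compare these genes at their starts. Each window runs from 250 bases before to 50 bases after the gene start annotated by RefSeq on GRCh38.p14, written 5′ to 3′ on the gene's strand, with the palindrome TCACGTGA in capitals where it occurs.
TCEAL5 (chrX:103276701-103277000, minus strand): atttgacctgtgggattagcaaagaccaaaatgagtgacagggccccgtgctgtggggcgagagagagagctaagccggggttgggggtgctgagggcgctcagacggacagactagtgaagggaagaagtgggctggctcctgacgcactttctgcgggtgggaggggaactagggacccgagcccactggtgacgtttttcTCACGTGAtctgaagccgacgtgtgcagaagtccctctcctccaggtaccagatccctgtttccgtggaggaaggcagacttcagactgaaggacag
TCEAL8 (chrX:103255106-103255405, minus strand): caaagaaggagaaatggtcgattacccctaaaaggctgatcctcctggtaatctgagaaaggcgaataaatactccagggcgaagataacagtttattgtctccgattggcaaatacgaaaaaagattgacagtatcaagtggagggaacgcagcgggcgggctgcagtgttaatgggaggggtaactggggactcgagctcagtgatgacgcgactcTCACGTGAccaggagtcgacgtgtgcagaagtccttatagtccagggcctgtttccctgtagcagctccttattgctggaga
TCEAL9 (chrX:103356256-103356555, plus strand): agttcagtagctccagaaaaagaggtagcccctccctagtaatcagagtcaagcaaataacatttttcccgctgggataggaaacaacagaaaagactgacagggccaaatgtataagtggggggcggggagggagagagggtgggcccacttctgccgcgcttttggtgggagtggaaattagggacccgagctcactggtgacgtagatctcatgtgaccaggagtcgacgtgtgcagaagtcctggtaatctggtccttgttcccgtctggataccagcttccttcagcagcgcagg
BEX2 (chrX:103310941-103311240, minus strand): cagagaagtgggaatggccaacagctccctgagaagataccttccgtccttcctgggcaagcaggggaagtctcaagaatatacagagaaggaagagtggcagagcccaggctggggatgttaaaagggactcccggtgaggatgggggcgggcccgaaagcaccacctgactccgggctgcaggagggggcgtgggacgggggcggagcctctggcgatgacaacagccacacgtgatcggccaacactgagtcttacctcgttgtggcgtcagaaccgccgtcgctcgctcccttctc
The motif TCACGTGA reads the same on both strands and contains the shorter palindrome CACGTG, the E-box. It was picked after the sequences had been compared. It occurred in a window of 7 of the 10 members (TCEAL1, TCEAL3, TCEAL4, TCEAL5, TCEAL8, BEX1 and BEX3). Some genes have several windows, and by window it occurred in 7 of 14 for the members, against 0.98% of the 35116 windows of the same length in the RefSeq table. BEX2, BEX4 and TCEAL9 had no match, although the windows of BEX2 and BEX4 held the shorter CACGTG, which 7.26% of all windows held. The motif began 47 bases before the gene start in TCEAL5, 48 in BEX1 and BEX3, 57 in TCEAL1, 81 in TCEAL3, 32 in TCEAL8 and 11 in TCEAL4. The longest stretch shared by the TCEAL5 and TCEAL8 windows was the 18 bases cgacgtgtgcagaagtcc, which 4 windows in the whole table held, those of TCEAL5, TCEAL8, TCEAL9 and an uncharacterised RefSeq gene. With BEX2, the TCEAL5 window shared at most 9 bases in a row. The TCEAL5 window held 13 CpG dinucleotides, near the median of 14 over all windows. These matches describe letters in a window and are not binding sites.

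LLPH, the gene altered in these neurons, had 30.6 ± 1.14 CPM of RNA in Nterm/Nterm and 27.8 ± 0.807 CPM in wt/wt libraries (SD, n = 3 each), a log2 change of 0.14 ± 0.06 (SE) that did not pass edgeR's quasi-likelihood test (adjusted p = 0.135). CPM is a transcript's count scaled to the size of its library. Its footprints fell to 97 counts over the 3 Nterm/Nterm libraries, against 321 counts over the 3 wt/wt libraries (log2 change -1.60 ± 0.19, adjusted p = 1.77e-05, edgeR). Library totals ran from 18944427 to 25089790 counts for RNA and from 12652833 to 16356419 for footprints. All 11 neuron markers were detected, with summed RNA levels of 15666 to 16928 CPM in Nterm/Nterm and 13560 to 14501 CPM in wt/wt libraries. The genotype tag of the 6 Ribo-seq samples names the opposite genotype to their titles and descriptions. Genotypes follow the titles, and every direction given for footprints rests on them. With the titles, both assays have their higher TCEAL5 counts in Nterm/Nterm. With the tag, wt/wt neurons would have 1 to 4 RNA counts of TCEAL5 per library but 313 to 426 footprint counts.

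TCEAL5 was present in Nterm/Nterm neurons and almost missing from wt/wt neurons. Its RNA counts were 467, 439 and 412 in the Nterm/Nterm libraries, against 4, 1 and 3 in the wt/wt libraries. Its footprint counts were 426, 313 and 424 in the Nterm/Nterm libraries, against 4, 5 and 2 in the wt/wt libraries. The genotypes were far apart in both assays, and no Nterm/Nterm library came near a wt/wt one. In CPM, RNA averaged 21.95 ± 2.37 in Nterm/Nterm and 0.109 ± 0.0583 in wt/wt, and footprints averaged 28.8 ± 4.95 in Nterm/Nterm and 0.248 ± 0.0898 in wt/wt (SD, n = 3 each). The ratio of scaled summed counts, Nterm/Nterm over wt/wt, was 196 for RNA, with a 95% interval of 99.3 to 455. For footprints it was 115, with an interval of 63.9 to 230. These intervals cover counting error only. They take no account of TCEAL5 having been chosen for this difference, and they are not a test of it. As a share of the counts of the 10 members, TCEAL5 made up 2.86% ± 0.301 of RNA in Nterm/Nterm and 0.0151% ± 0.00809 in wt/wt libraries. Among the TCEAL members alone its share of RNA was 10.6% ± 0.704 in Nterm/Nterm and 0.0572% ± 0.0302 in wt/wt libraries. No transcript with a name totalled fewer than 1016 counts over the 12 libraries, so TCEAL5, with 8 RNA and 11 footprint counts in wt/wt, was listed through its Nterm/Nterm counts. Cell type markers that moved with genotype are given after the BEX genes, and their part in the TCEAL5 difference was not tested.

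**Figure D1:**
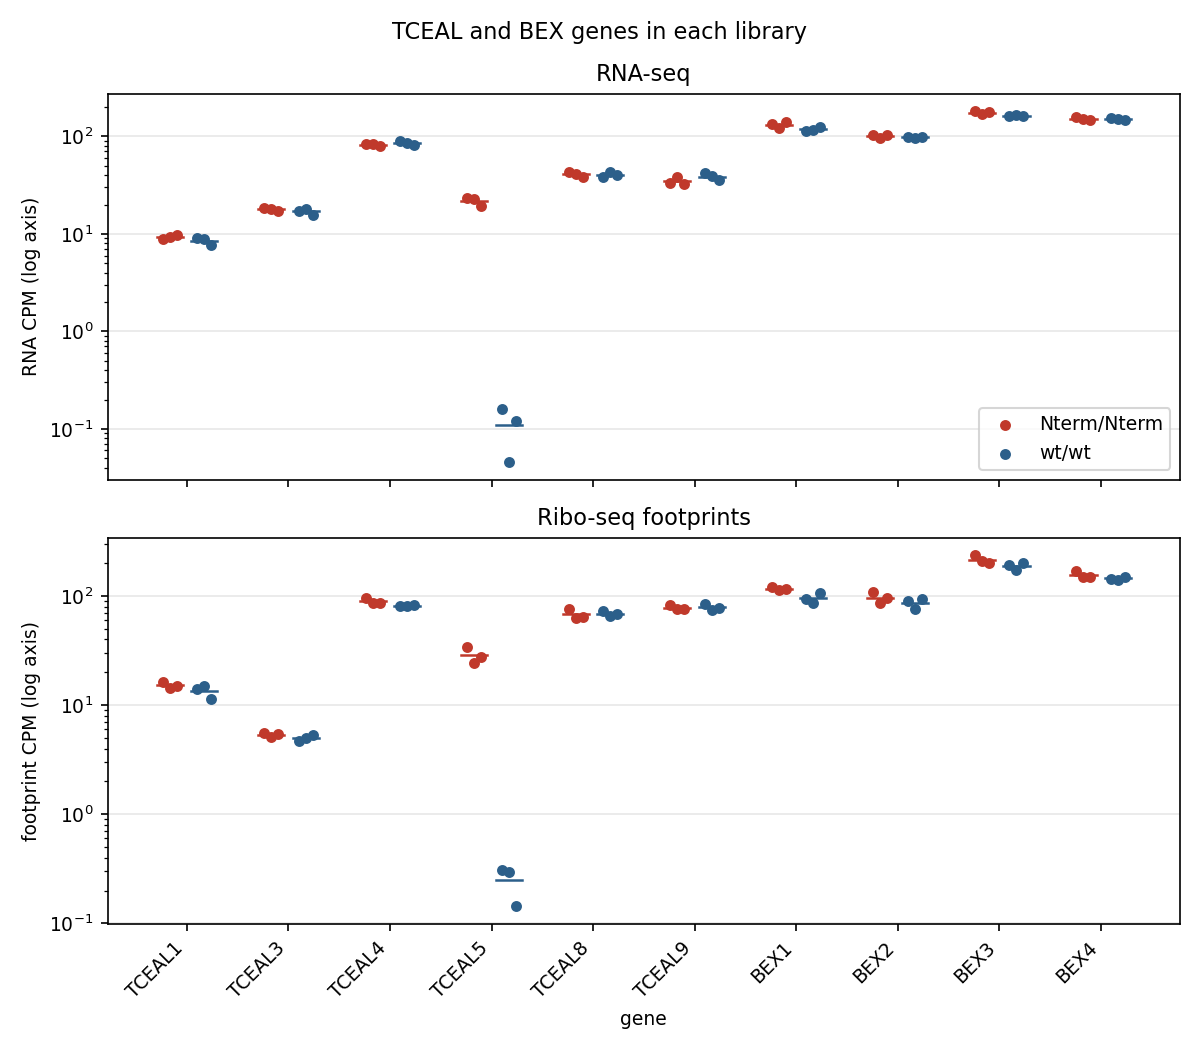
Level of each TCEAL and BEX gene in every library, as CPM on a log axis, for RNA (top) and footprints (bottom); red points are Nterm/Nterm and blue points wt/wt libraries, and short lines are means of 3. TCEAL5 drops to between 0.0457 and 0.161 CPM of RNA in wt/wt libraries, while the points of the other 9 genes lie close together in both genotypes.

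The relatives did not share that pattern. With the replicate number as a block, which pairs same-numbered libraries, 2 of the 9 passed the RNA test (edgeR, adjusted p under 0.05). They were BEX1 and BEX3, beside 30.7% of all transcripts called in that fit. Without the block, none of the 9 passed. In that unblocked fit 17.9% of the 14659 transcripts tested were called, 7.25% higher and 10.6% lower in Nterm/Nterm. At an unadjusted p under 0.05 there were 2, BEX1 and BEX3, beside 32.3% of all transcripts, and DESeq2 and limma-voom called 0 of the 9. The log2 changes of the relatives ran from -0.15 to 0.15 with a median of 0.05, beside a median of -0.00039 over all transcripts. The 95% intervals of the 9 changes all lay between -0.32 and 0.37 on the log2 scale, that is, between 0.801-fold and 1.30-fold. Summed over the relatives, RNA stood at 764, 729 and 747 CPM in the Nterm/Nterm libraries and at 722, 723 and 715 CPM in the wt/wt libraries. The lowest Nterm/Nterm sum lay above the highest wt/wt sum, but most of each sum came from the BEX genes. The BEX members summed to 561 ± 20.3 CPM in Nterm/Nterm and 530 ± 4.49 CPM in wt/wt (SD, n = 3 each). The TCEAL relatives summed to 186 ± 7.12 CPM in Nterm/Nterm and 190 ± 8.91 CPM in wt/wt, and their libraries overlapped between genotypes.

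Same-numbered RNA libraries of the 2 genotypes deviated together, and with the replicate number as a block, edgeR called 2 of the 9 relatives in RNA, both higher in Nterm/Nterm. Of all transcripts, 30.7% were called in that fit, 14.3% higher and 16.4% lower. They were BEX1, with a log2 change of 0.15 ± 0.04 (SE, adjusted p = 0.00281), and BEX3, with 0.11 ± 0.03 (adjusted p = 0.0141).

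Among the TCEAL relatives, TCEAL8 is the closest protein-coding neighbour of TCEAL5 on one side and shares the 18-base promoter stretch above. Its RNA was 43.4, 41.1 and 38.7 CPM in the Nterm/Nterm libraries and 38.2, 43.1 and 39.8 CPM in the wt/wt libraries. The genotypes overlapped, and the log2 change was 0.03 with a 95% interval of -0.12 to 0.17. Its footprints also overlapped, at 76.9, 62.7 and 64.4 CPM in Nterm/Nterm and 72.9, 65.6 and 68.1 CPM in wt/wt libraries, a log2 change of -0.02 (interval -0.18 to 0.15).

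TCEAL9, also called WBP5 for its binding to WW domains, had the lowest RNA change of the family. Its RNA was 33.5, 38.6 and 32.7 CPM in the Nterm/Nterm libraries and 41.7, 38.9 and 35.4 CPM in the wt/wt libraries. The Nterm/Nterm libraries lay toward the lower end but overlapped the others, with a log2 change of -0.15 ± 0.08 (SE, edgeR adjusted p = 0.219). Its footprints averaged 78.5 ± 4.19 CPM in Nterm/Nterm and 78.9 ± 4.88 CPM in wt/wt (SD, n = 3 each).

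TCEAL4 had footprints of 96.8, 86.3 and 87.2 CPM in the Nterm/Nterm libraries and 80.3, 81.5 and 83.2 CPM in the wt/wt libraries. Every Nterm/Nterm library lay above every wt/wt one, yet the change did not pass (log2 change 0.14 ± 0.07 SE, edgeR adjusted p = 0.188). Its RNA pointed the other way without passing, at 82.5 ± 2.74 CPM in Nterm/Nterm and 85.9 ± 4.44 CPM in wt/wt (SD, n = 3 each), a log2 change of -0.06 ± 0.05 (adjusted p = 0.457).

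TCEAL1, which has been described as a modulator of transcription in reporter assays, was the least counted relative in RNA. It had 176, 177 and 210 RNA counts in the Nterm/Nterm libraries and 223, 192 and 193 in the wt/wt libraries. Scaled to library size, this was 9.33 ± 0.460 CPM in Nterm/Nterm and 8.48 ± 0.681 CPM in wt/wt (SD, n = 3 each), a log2 change of 0.14 ± 0.11 (SE, edgeR adjusted p = 0.41). TCEAL3 had 363, 344 and 365 RNA counts in the Nterm/Nterm libraries and 427, 397 and 393 in the wt/wt libraries. Its RNA levels overlapped between genotypes (log2 change 0.07, interval -0.11 to 0.24). TCEAL3 had the fewest footprints of the relatives, 69, 66 and 82 in the Nterm/Nterm libraries and 62, 85 and 74 in the wt/wt libraries, which leaves a wider interval of -0.23 to 0.41. TCEAL3 and TCEAL5 have similar sequences, and the gene name reference also lists an antisense gene, TCEAL3-AS1. How the authors counted reads that match several transcripts, and whether strand was used, is not given, so their values are uncertain to that extent.

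Of the BEX genes, BEX1 was the only relative called in footprints, where 13.3% of the 13566 transcripts tested were called, 4.36% higher and 8.91% lower. Its footprints were 121, 113 and 115 CPM in the Nterm/Nterm libraries and 93.4, 86.2 and 106 CPM in the wt/wt libraries. Every Nterm/Nterm library lay above every wt/wt one. The log2 change was 0.29 ± 0.07 (SE, edgeR adjusted p = 0.0138), a fold of 1.22 with a 95% interval of 1.10 to 1.36. Its RNA was 133, 123 and 140 CPM in the Nterm/Nterm libraries and 114, 117 and 125 CPM in the wt/wt libraries, a log2 change of 0.15 ± 0.06 that passed in the blocked fit above but not without the block (edgeR adjusted p = 0.0755). The footprint call was lost without Nterm/Nterm footprint library 1 (adjusted p = 0.0601), without wt/wt library 1 (0.0712) and without wt/wt library 2 (0.111). Nterm/Nterm footprint library 1 held the highest level of all 10 members among the Nterm/Nterm libraries.

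BEX3, also known as NADE or NGFRAP1, had RNA of 182, 168 and 177 CPM in the Nterm/Nterm libraries and 160, 164 and 163 CPM in the wt/wt libraries. It was the only relative whose genotypes did not overlap in RNA, where 36.2% of all transcripts tested did not overlap, 17.4% above and 18.8% below. The log2 change was 0.11 ± 0.04 (SE, edgeR adjusted p = 0.0879 without the block). Its footprints were 237, 209 and 202 CPM in the Nterm/Nterm libraries and 192, 173 and 202 CPM in the wt/wt libraries. The lowest Nterm/Nterm library lay just below the highest wt/wt library, with a log2 change of 0.19 ± 0.08 (adjusted p = 0.101). In footprints, 2 of the 9 relatives had genotypes that did not overlap, BEX1 and TCEAL4, beside 30.7% of all transcripts tested, 14.8% above and 15.9% below.

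BEX2, known as a partner of the transcriptional regulator LMO2, is the closest protein-coding neighbour of TCEAL5 on the other side. Its RNA was 104, 96.4 and 104 CPM in the Nterm/Nterm libraries and 98.4, 97.1 and 98.5 CPM in the wt/wt libraries. The Nterm/Nterm libraries lay on both sides of the wt/wt ones, and the log2 change was 0.05 with an interval of -0.05 to 0.15. BEX4 had the smallest RNA change of the family, at 152 ± 4.43 CPM in Nterm/Nterm and 150.4 ± 3.03 CPM in wt/wt (SD, n = 3 each), a log2 change of 0.01 with an interval of -0.08 to 0.11. Their footprint changes were 0.16 ± 0.09 for BEX2 and 0.11 ± 0.07 for BEX4 (SE, edgeR adjusted p = 0.256 and 0.335).

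Over the 9 relatives, footprint changes ran from -0.02 to 0.29 with a median of 0.14, beside a median of 0.0083 over all transcripts tested. All 9 intervals lay between -0.23 and 0.45. Summed footprints of the relatives were 916, 803 and 809 CPM in the Nterm/Nterm libraries and 775, 718 and 799 CPM in the wt/wt libraries, with Nterm/Nterm library 1 the highest of the 6. In RNA, 7 of 11 neuron markers were called higher and 0 lower (median log2 change 0.15). In the blocked fit 10 of 11 were called higher. In footprints 3 of the 11 were called higher and 0 lower, with a median of 0.24. Their footprint sums were 7662 to 7801 CPM in Nterm/Nterm and 5567 to 7186 CPM in wt/wt libraries. Changes of all 11 lay above 0 in both assays. Over all transcripts, 7.25% were called higher and 10.6% lower in RNA, 14.3% and 16.4% in the blocked fit, and 4.36% and 8.91% in footprints. The 3 named mesenchymal markers, COL1A1, COL1A2 and FBN1, were all called lower in RNA, and 2 of them in footprints. Summed over those 3 markers, RNA was 1164 to 1479 CPM in Nterm/Nterm and 1809 to 2163 CPM in wt/wt libraries. Of the pluripotency markers, 2 of 4 named ones were called lower in RNA and 0 higher. Their RNA sums were 175 to 206 CPM in Nterm/Nterm and 257 to 273 CPM in wt/wt libraries. Of the neural progenitor markers, 4 of 6 named ones were called lower in RNA and 1 higher. The 8 glial markers had no name in the files and were not analysed here. The part of these marker differences in the changes of BEX1 and BEX3 was not tested. In bulk libraries, fewer cells of a type and less RNA per cell cannot be told apart.

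**Figure D2:**
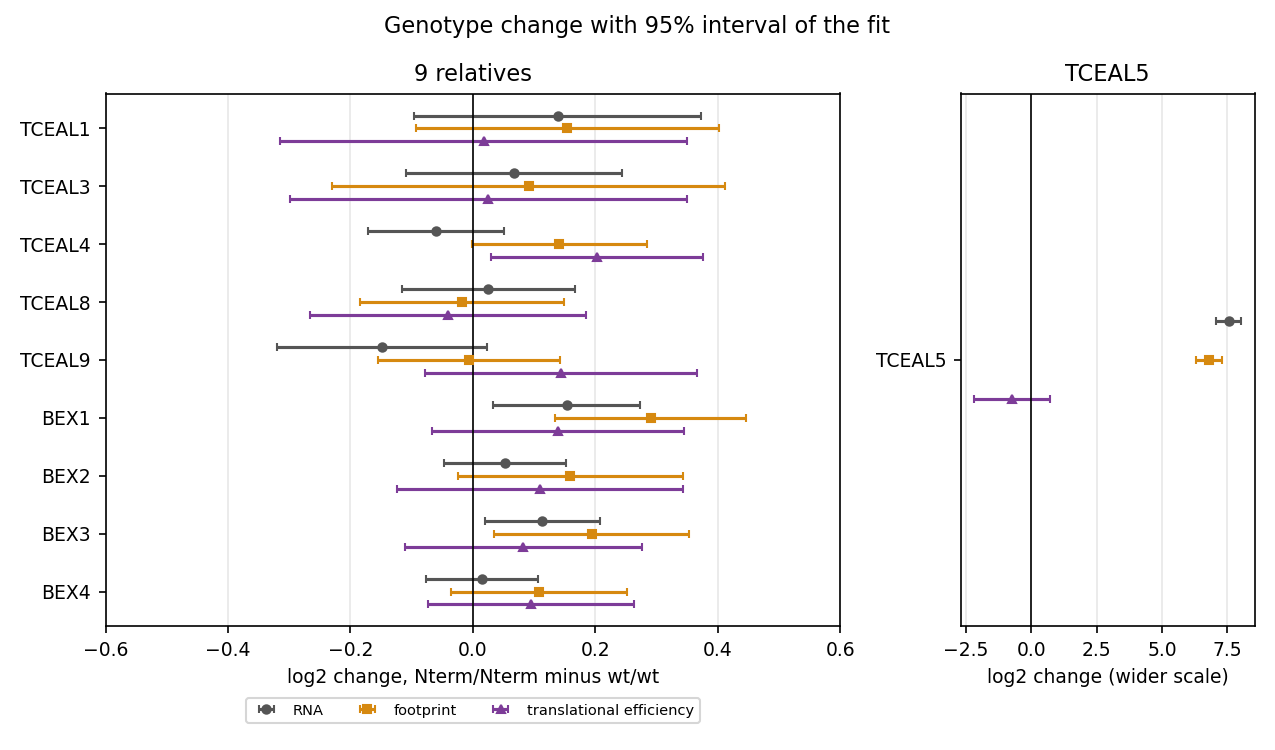
Log2 change between Nterm/Nterm and wt/wt libraries for RNA, footprints and translational efficiency, with the 95% interval of the edgeR fit, for the 9 relatives (left) and TCEAL5 (right, wider scale). The relatives' points all lie between -0.15 and 0.29, and the BEX1 footprint interval lies above 0. The intervals of BEX1 and BEX3 RNA, BEX3 footprints and TCEAL4 efficiency also lie above 0. They did not pass after adjustment in these fits, which had no replicate block, while BEX1 and BEX3 RNA passed with it. TCEAL5 is shown without a test, since it was chosen for its difference.

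Genes around TCEAL5 were compared in their order on the X chromosome, since the members sit in one cluster. Between ARMCX1 and RAB9B the RefSeq annotation of GRCh38.p14 lists 33 protein-coding genes other than TCEAL5, leaving out read-through genes, of which 22, the 9 relatives among them, were named and tested in RNA. None of the 22 passed the RNA test without the block, with 17.9% called over all transcripts, and their log2 changes ran from -0.16 to 0.16. In the blocked fit 3 were called, all higher, against 30.7% over all transcripts. In footprints 1 of the 22 was called, BEX1. Genes of the same order outside the family include ARMCX3, which encodes a mitochondrial outer membrane protein and had 246 ± 2.95 CPM in Nterm/Nterm and 244 ± 4.03 CPM in wt/wt RNA libraries (SD, n = 3 each). MORF4L2, a chromatin protein gene on the far side of TCEAL1, had 307 ± 8.49 CPM in Nterm/Nterm and 293 ± 1.08 CPM in wt/wt RNA libraries. These neighbours were chosen for naming after their values were seen.

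**Figure D3:**
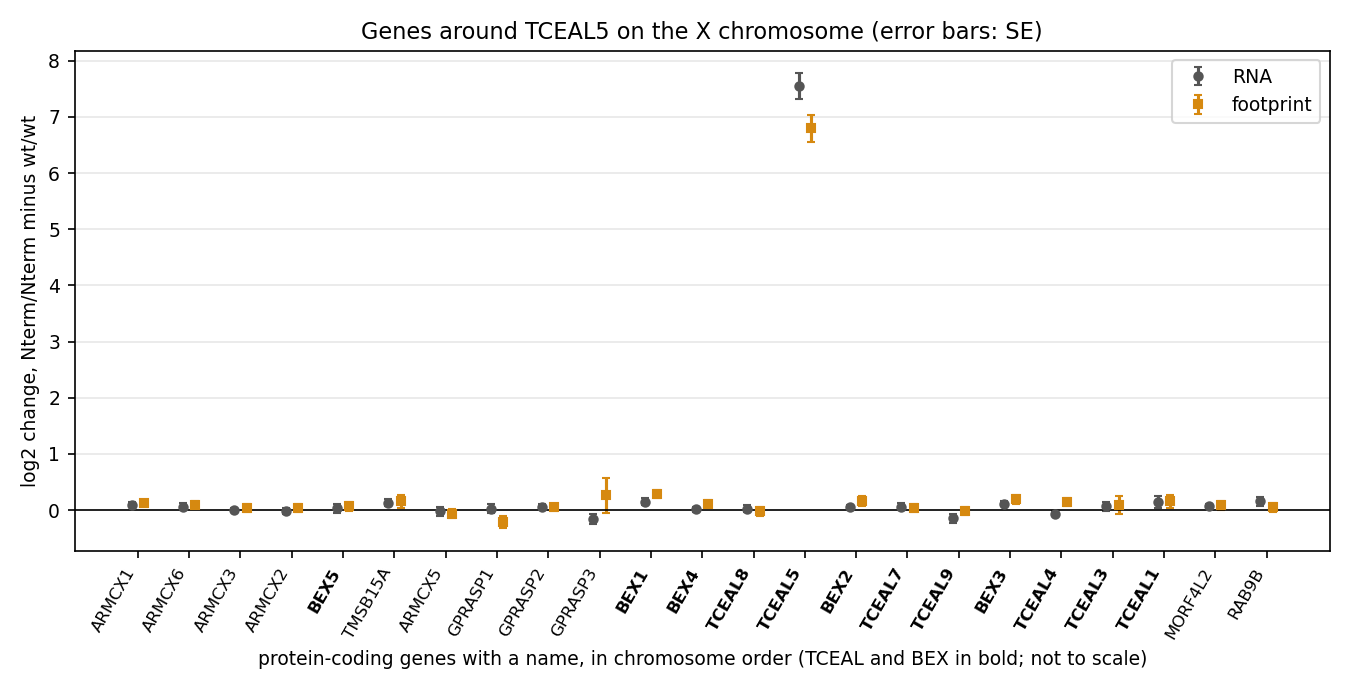
Log2 change between Nterm/Nterm and wt/wt libraries, with SE, for TCEAL5 and 22 named protein-coding genes around it in chromosome order. TCEAL5 stands at 7.55 in RNA and 6.80 in footprints as fitted by edgeR, values that depend on the prior count added to its few wt/wt counts, and the other genes lie between -0.22 and 0.29.

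A wider list of 66 genes of this chromosome region gave 37 tested in RNA, of which 4 were higher and 6 lower in Nterm/Nterm, with a median log2 change of 0.05. Over all transcripts, 7.25% were called higher and 10.6% lower. Its largest called changes were outside the TCEAL and BEX interval. The type IV collagen genes COL4A6 and COL4A5 fell by 1.09 and 0.72 on the log2 scale (edgeR adjusted p = 0.000589 and 0.00125). SRPX2, a secreted protein gene, fell by 0.75 (adjusted p = 0.0063), and PCDH19, an adhesion molecule of the protocadherin family, rose by 0.74 (adjusted p = 0.00265). The mesenchymal markers given above fell as well, and their part in the collagen and SRPX2 changes was not tested. TCEAL7 and BEX5, family genes outside the 10 members that also had names, did not pass in RNA or footprints. TCEAL7 RNA was 46.3 ± 1.32 CPM in Nterm/Nterm and 44.3 ± 1.72 CPM in wt/wt (SD, n = 3 each). BEX5 RNA was 28.7 ± 1.60 CPM in Nterm/Nterm and 28.0 ± 2.26 CPM in wt/wt. TCEAL2 and TCEAL6 had no name in the files and were not analysed here.

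Translational efficiency sets footprints against RNA for each transcript. No change in it was called for the 9 relatives (edgeR interaction test, adjusted p = 1.00 for each), where 0.0203% of 14786 transcripts were called, 0.00676% higher and 0.0135% lower. At an unadjusted p under 0.05 there was 1, TCEAL4, with a log2 change of 0.20 (interval 0.03 to 0.37), beside 680 of the 14786 transcripts. limma-voom called 0 of the 9, and DESeq2 gave no adjusted p for any of them, so it bears on none of these calls. The changes ran from -0.04 to 0.20, with 8 of 9 above 0 and a median of 0.09. Over all transcripts, 53.7% were above 0 and the median was 0.01. For TCEAL5, the wt/wt efficiency rests on 8 RNA and 11 footprint counts over 3 libraries each, and the fitted change of -0.73 has an interval of -2.18 to 0.73.

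In the authors' deposited table, the members differed widely in efficiency, with TCEAL3 lowest in both genotypes. Length cancels in this ratio only if both assays were counted over the same part of the transcript, which is not given. TCEAL3 stood in the authors' deposited table at 0.289 ± 0.0164 in Nterm/Nterm and 0.288 ± 0.0356 in wt/wt (the authors' mean and SD), above 6.31% of the 10932 listed transcripts in Nterm/Nterm. TCEAL9 was highest of the members in Nterm/Nterm in the authors' deposited table, at 2.16 ± 0.266, above 91.2% of listed transcripts, and stood at 1.97 ± 0.132 in wt/wt. Between these in Nterm/Nterm came BEX1 (0.846), BEX2 (0.909), BEX4 (0.984), TCEAL4 (1.05), BEX3 (1.17), TCEAL5 (1.26), TCEAL1 (1.56) and TCEAL8 (1.58), all from the authors' deposited table. Of the 9 adjacent pairs in that order, 7 had overlapping ranges of mean ± SD in the authors' deposited table; the exceptions were TCEAL3 below BEX1 and TCEAL8 below TCEAL9. TCEAL5 at 1.26 ± 0.220 in Nterm/Nterm lay among its relatives, while its wt/wt value in the authors' deposited table, the highest of the 10, was 2.55 ± 1.78. The authors' deposited table gives a ratio of Nterm/Nterm to wt/wt means from 0.957 to 1.14 for the relatives, with a lowest unadjusted p of 0.0712, for TCEAL4.

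**Figure D4:**
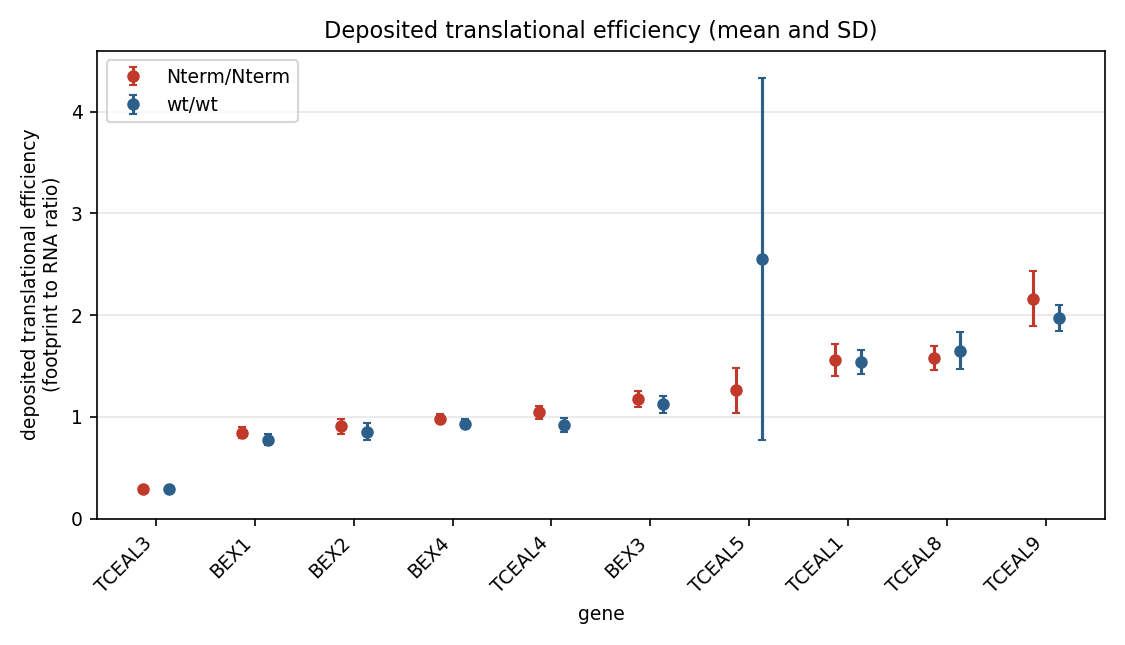
Translational efficiency (footprint to RNA ratio) of the 10 members from the authors' deposited table, mean and SD per genotype, ordered by the Nterm/Nterm value. TCEAL3 lies lowest at 0.289 in Nterm/Nterm, TCEAL9 highest at 2.16, and the wt/wt value of TCEAL5 has the widest SD, 1.78.

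Pathways tied to the 2 families by their names or partners were counted in the same fits. Of 33 transcription elongation factor genes, 0 were called higher and 2 lower in RNA, with a median log2 change of -0.0072. In footprints, 3 were called higher and 2 lower. In the blocked RNA fit 3 were higher and 3 lower. Over all transcripts, 17.9% were called in RNA, 13.3% in footprints and 30.7% in the blocked fit. The 2 called lower in RNA were ELL2 and ELL, elongation factors of the super elongation complex, which fell by 0.41 and 0.30 (edgeR adjusted p = 0.013 and 0.0243). Neither was called in footprints, with log2 changes of -0.36 and -0.09 (edgeR adjusted p = 0.0722 and 0.551). The 2 called lower in footprints were other genes of the list. TCEA1 and TCEA2, the genes that the TCEAL family is named after, were looked at after their values were known. TCEA1 RNA was 108 ± 6.84 CPM in Nterm/Nterm and 109.9 ± 2.03 CPM in wt/wt, and TCEA2 RNA was 39.9 ± 1.49 CPM in Nterm/Nterm and 40.4 ± 1.82 CPM in wt/wt (SD, n = 3 each).

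Of 36 genes of the p75 neurotrophin receptor pathway, 6 were called higher and 8 lower in RNA, with a median log2 change of -0.05. In footprints, 2 were called higher and 4 lower. In the blocked RNA fit 7 were higher and 14 lower. The shares over all transcripts were 7.25% higher and 10.6% lower in RNA, 4.36% and 8.91% in footprints, and 14.3% and 16.4% in the blocked fit. The adaptor gene SHC3 rose by 1.23 on the log2 scale (edgeR adjusted p = 0.000226) and its relative SHC1 fell by 0.49 (adjusted p = 0.00168). The caspase gene CASP6 fell by 0.42 (adjusted p = 0.0377), and NTRK2, which encodes the BDNF receptor TrkB, rose by 0.36 (adjusted p = 0.000452). NGFR, the p75 receptor itself, was looked at after its value was known, as the partner of BEX1 and BEX3. It had 290.2 ± 8.80 CPM of RNA in Nterm/Nterm and 333 ± 13.6 CPM in wt/wt (SD, n = 3 each), and fell by 0.20 on the log2 scale (edgeR adjusted p = 0.01). Its footprint change was -0.09 ± 0.07 (SE, adjusted p = 0.426). Of the neuron markers, 7 of 11 were called higher in the same RNA libraries, and their part in the changes of SHC3, NTRK2 and NGFR was not tested.

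The genes outside the family whose levels followed TCEAL5 most closely were found by Pearson's r of log2 CPM over the 12 libraries, after the mean of each assay was subtracted, among 10477 named transcripts of at least 5 CPM in each assay in the higher genotype. They were MAOA, the gene of monoamine oxidase A (r = 0.977), the clustered protocadherins PCDHGB4 (0.976) and PCDHA12 (0.971), the phosphodiesterase gene PDE12 (0.972) and the zinc finger gene ZFP28 (0.970). TCEAL5 split the 12 libraries by genotype, so this measure picks genes that are evenly higher in Nterm/Nterm. Their sizes were far smaller than that of TCEAL5: MAOA RNA was 74.3 ± 2.36 CPM in Nterm/Nterm and 49.4 ± 2.48 CPM in wt/wt, and ZFP28 RNA was 24.3 ± 2.38 CPM in Nterm/Nterm and 11.5 ± 1.42 CPM in wt/wt (SD, n = 3 each). By the same measure BEX1 (0.748) and BEX3 (0.692) were nearest to TCEAL5 among the relatives and TCEAL9 (-0.372) was farthest. Points from the same library share its depth, and these values are descriptions.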

How the data were processed

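The deposited table holds raw counts per Ensembl transcript for 12 libraries, and the authors' second table gives footprint to RNA ratios with an unadjusted p-value, per the file headers. The submitters' processing notes list Salmon 1.4.0, Bowtie2 2.3.4.3, cutadapt 2.4, UMI-tools 1.0.1, limma and edgeR, with no role for any, and the build GRCh37. How reads shared by transcripts were counted is not stated there. Names came from the ratio table, whose transcripts each had at least 1016 counts in all. Groups followed titles.

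The test of counts was edgeR's (version 4.0.16, R 4.3.3; TMM factors, filterByExpr, two-sided quasi-likelihood F test, Benjamini-Hochberg over all transcripts, threshold 0.05), RNA and footprints apart and efficiency as the interaction over 12 libraries. A positive log2 change means higher in Nterm/Nterm; SE is the change over the root of F. TMM scaling makes changes relative to other transcripts. Fits were tested on simulated data whose planted changes were larger than those of the relatives, so that check does not cover changes of their size. DESeq2 1.42.0, limma-voom of limma 3.58.1, other scaling, no filter, left-out libraries, a replicate block and the genotype tag were alternatives. Counting alone gives a relative error of 31.6% at 10 counts and 3.16% at 1000 counts.

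Deviations from group means of same-numbered Nterm/Nterm and wt/wt RNA libraries correlated at 0.113, 0.116 and 0.246, so the numbers were taken to pair them in the blocked fit. RNA changes and p-values not named as blocked come from the main fit, which did not pair them. Same-numbered RNA and footprint libraries correlated at 0.117, 0.233 and 0.334 in Nterm/Nterm and at 0.0408, 0.0811 and 0.180 in wt/wt. The main efficiency fit did not pair them, while its replicate block did. Named list genes are the 4 largest called RNA changes per list and the 5 most like TCEAL5; exceptions are stated. Members and lists were chosen with earlier results of these data known.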

Additional observations from a re-analysis of the deposited data

How the results depend on the processing

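TCEAL5 was chosen for its difference between genotypes, so its direction under the alternatives is no check of it. Without single libraries its fitted log2 change ran from 7.23 to 7.91 in RNA and from 6.55 to 6.95 in footprints. The genotype tag reverses its footprint change because it swaps the labels of those libraries. In RNA, relatives of TCEAL5 called numbered 2 with the replicate block and 0 to 2 without single libraries; transcripts called numbered 4504 with the replicate block and 841 to 2851 without single libraries, the lowest being 841 (wt/wt library 1 left out), 964 (wt/wt library 2) and 1729 (Nterm/Nterm library 3). Without Nterm/Nterm RNA library 2 the relatives called were BEX1 and BEX3, and without wt/wt RNA library 3 BEX1. In footprints, relatives called numbered 0 to 1 and transcripts called 954 to 2045 without single libraries, the lowest being 954 (wt/wt library 1 left out), 965 (Nterm/Nterm library 3) and 978 (wt/wt library 2). Efficiency calls numbered 2 to 4 without single libraries, 38 of the 740 transcripts that DESeq2 gave an adjusted p (none of them a relative), 20 with the replicate block and 4150 with the genotype tag, where 2 relatives (BEX1 and BEX3) were called. The tag swaps genotype in the footprint libraries only, so that fit sets RNA of each genotype, by title, against footprints of the other. Its calls therefore also take in RNA and footprint changes that go together. Why the other counts varied was not tested.

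Small changes that crossed 0 without single libraries, none of them called, were RNA of TCEAL8 (-0.017 to 0.074) and BEX4 (-0.0090 to 0.030), footprints of TCEAL8 (-0.11 to 0.037) and TCEAL9 (-0.051 to 0.028), and efficiency of TCEAL1 (-0.089 to 0.10), TCEAL3 (-0.029 to 0.081) and TCEAL8 (-0.14 to 0.012). With TMM over all libraries together, efficiency changes were -0.023 for TCEAL1 and -0.015 for TCEAL3.

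With the genotype tag, footprint changes were -0.15 for TCEAL1, -0.091 for TCEAL3, -0.14 for TCEAL4, -6.80 for TCEAL5, 0.017 for TCEAL8, 0.0064 for TCEAL9, -0.29 for BEX1, -0.16 for BEX2, -0.19 for BEX3 and -0.11 for BEX4. Efficiency changes with the tag were -0.29 for TCEAL1, -0.16 for TCEAL3, -0.081 for TCEAL4, -0.44 for BEX1, -0.21 for BEX2, -0.31 for BEX3 and -0.12 for BEX4.

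Footprint libraries of 1 number did not pair by the same check (correlations of 0.0369, 0.103 and 0.229, and not every library was closest to its own number), and the replicate block gave 2317 called transcripts there, with 1 relative, against 1800 without it. The block changed no other call of a relative. The few wt/wt counts of TCEAL5 limit its ratio and its efficiency in wt/wt, and the footprint depth of TCEAL3 limits its interval.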
